A study of Mus musculus with 8 samples.

Results

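Mouse embryonic stem (ES) cells depleted of Tfap4 were compared with ES cells depleted of Wiz, using the 2 siTfap4 and 2 siWiz libraries of the 8 in the series. Every gene that passed a filter on low counts entered the comparison, 14647 of the 55421 counted. The 2 siZic2 and 2 siNeg libraries contributed to the estimate of the spread and not to the difference. All 8 libraries came from E14 ES cells of a 129/Ola background that lack the miR-290-295 microRNA cluster, grown on gelatin in serum with LIF. The controls therefore carry that deletion too. Each culture received a siPOOL, a mixture of many siRNAs against 1 transcript, at 5 nM and was harvested 36 h later. Each group had biological duplicates, and siNeg received a negative control siPOOL. The QuantSeq 3' mRNA-Seq FWD kit starts from the poly(A) tail, so a gene is measured by reads near its 3' end.

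Tfap4 encodes a basic helix-loop-helix factor that binds E-box hexamers, with CAGCTG as its best known site, and it is linked to Myc and to cell cycle control. Wiz encodes a zinc finger protein that partners Ehmt1 and Ehmt2, the enzymes that place mono- and dimethylation on histone H3 lysine 9, and it is also found at chromatin loop anchors. In ES cells LIF and STAT3 signalling and the Pou5f1, Sox2 and Nanog circuit keep self-renewal, while the miR-290-295 cluster, which is absent here, normally speeds passage from G1 to S phase.

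The siTfap4 libraries held 8326675 and 8829051 counts and the siWiz libraries 11200948 and 10544436, with 9328709 to 13788856 in the other 4. Genes with at least 1 count numbered 19271 to 21170 per library, mitochondrially encoded genes took 5.08 to 6.84% of counts, and the 100 most counted genes took 26.1 to 31.3%. On the first principal component (59.8% of the variance) the siTfap4 libraries lay at -103 and -57.7 and the siWiz libraries at 36.4 and 1.85. The duplicates of these groups therefore stood apart from each other, siTfap4 replicate 1 farthest from all the rest. Summed levels of 8 ES cell markers were 2303 and 2490.2 CPM (TMM-scaled counts per library size) in siTfap4 and 3697 and 2820 CPM in siWiz, so as a sum all 4 libraries carried the markers of their label. The sum pools markers that moved in opposite directions. Dppa5a was at 3.72 and 9.26 CPM in siTfap4 and 848 and 246 CPM in siWiz. Nanog was also lower in siTfap4, and Pou5f1 higher. Bulk RNA cannot tell a smaller share of a cell type from less RNA of its genes per cell.

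Each target was lower in the libraries of its own siPOOL than in the other group. Neither call held in the test against a 1.5-fold minimum, and that on Wiz was also lost with the 4 compared libraries alone. Tfap4 (chr16:4544661-4559854, GRCm38) stood at 12.03 and 15.7 CPM in siTfap4 and 28.6 and 32.9 CPM in siWiz, with 30.98 and 33.02 CPM in siZic2 and 33.4 and 37.1 CPM in siNeg. The 2 siTfap4 libraries were the lowest of the 8 and did not overlap the siWiz libraries (log2 difference -1.15, SE 0.25, adjusted p = 0.0104, a 2.22-fold lower level). Of all genes tested 61.7% had siTfap4 and siWiz libraries that did not overlap. Wiz (chr17:32354055-32389439) stood at 30.1 and 35.9 CPM in siTfap4 and 16.8 and 19.7 CPM in siWiz, 43.9 and 37.5 CPM in siZic2 and 49.9 and 46.1 CPM in siNeg. Its 2 siWiz libraries were the lowest of the 8, and siTfap4 lay 1.81-fold above siWiz (log2 difference 0.86, SE 0.24, adjusted p = 0.0304). The log2 difference of Wiz from siNeg was -0.54 in siTfap4 (adjusted p = 0.131) and -1.40 in siWiz (adjusted p = 0.708), and neither passed the threshold over all genes tested. The call on Tfap4 was lost without siTfap4 replicate 1 (adjusted p = 0.0946) and after correction for GC content and length (adjusted p = 0.0532). That on Wiz was lost in 6 of 8 fits with a library left out, with an adjusted p of up to 0.239 without siWiz replicate 1, and the correction took its log2 difference to 0.24 (adjusted p = 0.501). Zic2, targeted in neither group, stood at 6.20 and 5.39 CPM in siTfap4 and 2.59 and 2.01 CPM in siWiz and did not pass the threshold (adjusted p = 0.0601). It passed in 7 of 18 alternatives, after the correction for GC content and length among them (log2 difference 1.79, adjusted p = 0.0117). Its level was 2.15 and 1.83 CPM in siZic2, against 4.49 and 2.21 CPM in siNeg, and the siZic2 range overlapped that of siWiz.

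**Figure D1:**
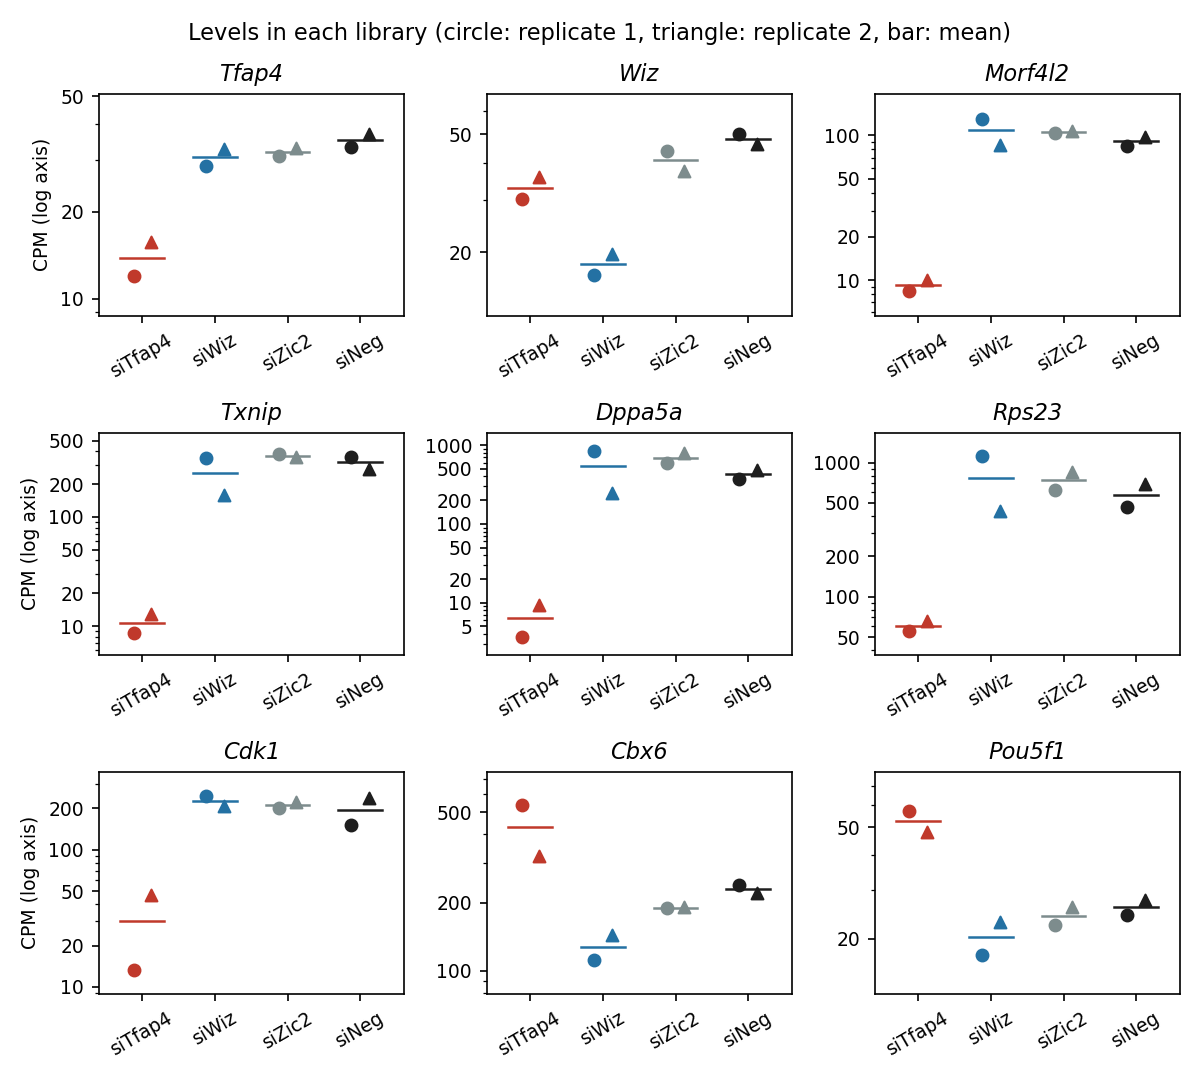
Levels of 9 genes in each of the 8 libraries, in CPM on log axes, with circles for replicate 1, triangles for replicate 2 and a bar for the group mean. Tfap4 is lowest in the 2 siTfap4 libraries and Wiz in the 2 siWiz libraries, while Morf4l2, Txnip, Dppa5a, Rps23 and Cdk1 are lower, and Cbx6 and Pou5f1 higher, in both siTfap4 libraries than in both siWiz libraries.

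The 2 knockdowns differed in 2207 genes, 15.1% of those tested, at an adjusted p below 0.05 (edgeR quasi-likelihood test). Of these, 682 (4.66% of the genes tested) were higher in siTfap4 and 1525 (10.4%) were lower. The lower genes also differed by more, with a median of 2.86-fold against 2.08-fold, and 449 of them differed by at least 4-fold against 28 of the higher genes. The median over all genes tested was -0.01 on the log2 scale, with quartiles at -0.57 and 0.45. In siNeg nearly all of the called genes had levels nearer to those of siWiz. Of the lower genes, 1510 (99%) had a siNeg level nearer to siWiz than to siTfap4, and of the higher genes 647 (94.9%). The median log2 difference of the lower genes from siNeg was -1.51 in siTfap4 and 0 in siWiz, and that of the higher genes 0.91 and -0.15. The siNeg and siZic2 libraries entered the spread of the same fit, and these positions carry no test.

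**Figure D2:**
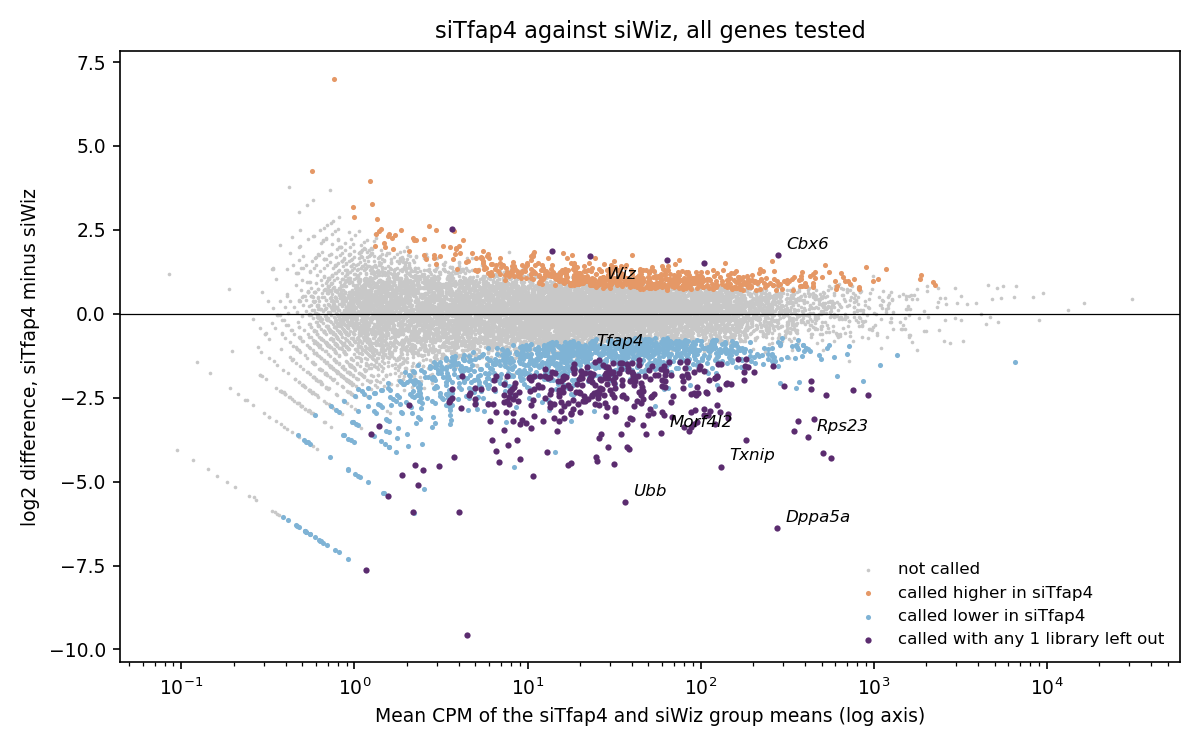
Log2 difference (siTfap4 minus siWiz) against the mean CPM of the group means (log axis) for the 14647 genes tested. Of the 682 higher and 1525 lower genes, purple points are those called with any 1 library left out, most of which lie below the line. Orange and blue points are the remaining higher and lower genes.

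The number of genes called fell most without siTfap4 or siWiz replicate 1. It also fell without siWiz replicate 2 or either siZic2 library, although the siZic2 libraries enter only the spread. Without siTfap4 replicate 1 the count was 401 (20 higher, 381 lower), and without siWiz replicate 1 it was 407 (14 higher, 393 lower). Without siTfap4 replicate 2 it was 3279 (1182 higher, 2097 lower). The median lower gene deviated from its mean over 8 libraries by -1.52 and -0.84 in siTfap4 and by 0.55 and 0.17 in siWiz, and the median higher gene by 0.98 and 0.50 against -0.44 and -0.14. For the median gene both replicate 1 libraries thus lay farther out than their replicate 2. The same genes also separated the siWiz duplicates, since 87.3% of the lower genes were above in replicate 1 and the median gap was 0.38. In siNeg that share was 59.3%. A total of 343 genes (15.5% of those called) kept their call with each of the 8 libraries left out in turn. Of these 337 were lower, by a median of 5.03-fold, and 6 were higher, among them Cbx6, Adam15, Cavin1, Gm13223 and Gm23300. Gm13223, a processed pseudogene, shared 43.8% of its end windows (defined with the processing below) with 10 other genes, Cdv3 among them. Gm23300, a snoRNA that overlaps Cep55 on the same strand, shared 26.3% with 2 other genes. The reads of Gm13223 and Gm23300 therefore cannot be assigned with certainty. Of 146 genes named or tallied by rule, 139 had the difference nearest 0 when one of these 2 replicate 1 libraries was left out, and the fold of 58 of the 137 called moved by over 1.5 times with at least 1 of the 8 libraries left out. In what follows, genes that kept their call in all 8 fits are called stable to leaving out a library, and for many of the others the adjusted p without the named library is given. That value is not always the largest. For some genes, Kdm3a and Sesn2 among them, leaving out siWiz replicate 1 gave a larger adjusted p than the one given.

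**Figure D3:**
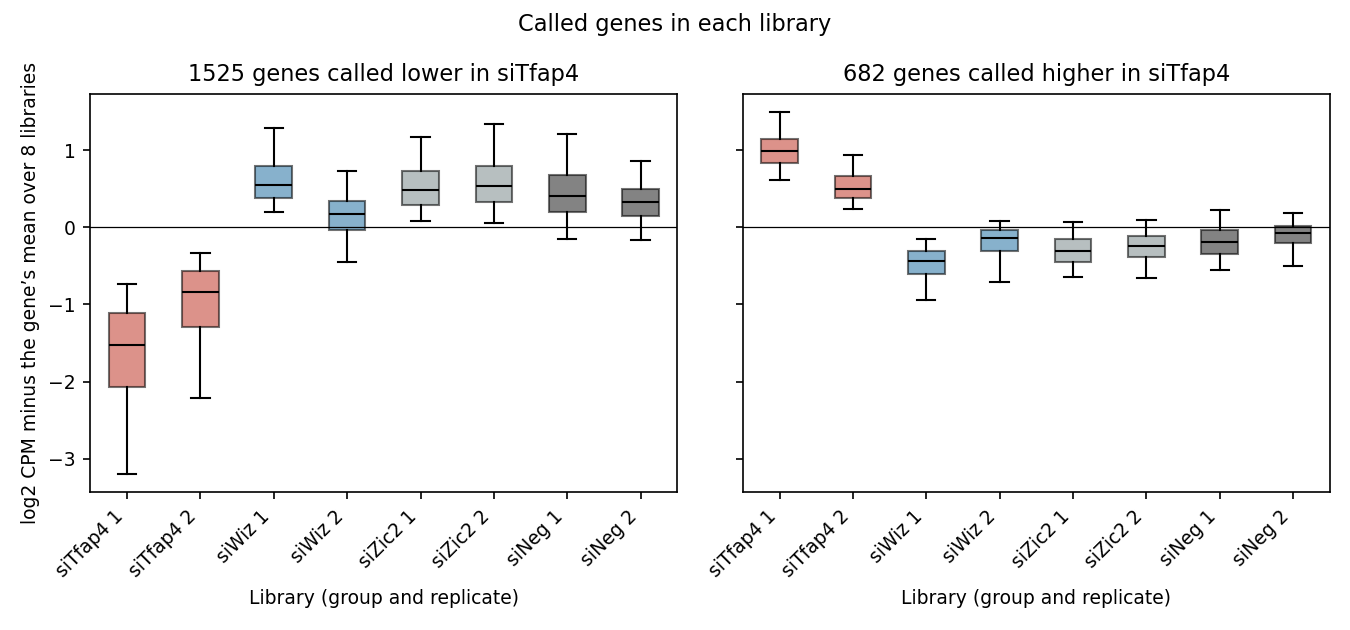
Deviation of each called gene from its mean over the 8 libraries (log2 CPM), with boxes for the quartiles, lines for the median and whiskers from the 5th to the 95th percentile. The lower genes have medians of -1.52 and -0.84 in siTfap4 and 0.55 and 0.17 in siWiz, so replicate 1 lies farther from 0 in both groups.

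GC content moved with the direction of the difference. The last 300 transcript bases had a median GC content of 49.7% in the higher genes, 39.7% in the lower genes and 43% in all genes tested. In the tenth of genes with the lowest GC content (median 29%) 1.53% were higher and 12.6% lower, and in the tenth with the highest (median 56.3%) 12.9% were higher and 3.74% lower. Over the same bins the median log2 difference went from -0.21 to 0.45, and the difference between the siWiz duplicates went from 0.18 to -0.24. With protein-coding genes corrected for GC content and transcript length, 2730 were called, 1495 higher and 1235 lower, a share of lower calls of 45.2%. The same protein-coding genes without the correction gave 732 higher and 1432 lower (66.2% lower), and all genes tested 69.1% lower. The median log2 difference over the protein-coding genes was 0.12 with the correction and -0.01 without it. All 314 protein-coding genes that were stable to leaving out a library were also called after it, 310 of them lower and 4 higher. Of the genes chosen by rule 12 lost their call under it, among them Tfap4, Wiz, Nanog, Etv4, Amotl2, Sesn2, Utp4, Srsf4, Mbd1, Sox21 and Hist2h2ac. The part of GC content in the other calls was not tested. For the gene groups below, the share of the group called without the correction is to be read against 15.1% of all genes tested. The counts after the correction stand beside the uncorrected ones. They are to be read against 12% of the protein-coding genes called higher and 9.89% called lower after it. Counts without a library are to be read against the far smaller numbers of all genes called in those fits, given above.

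**Figure D4:**
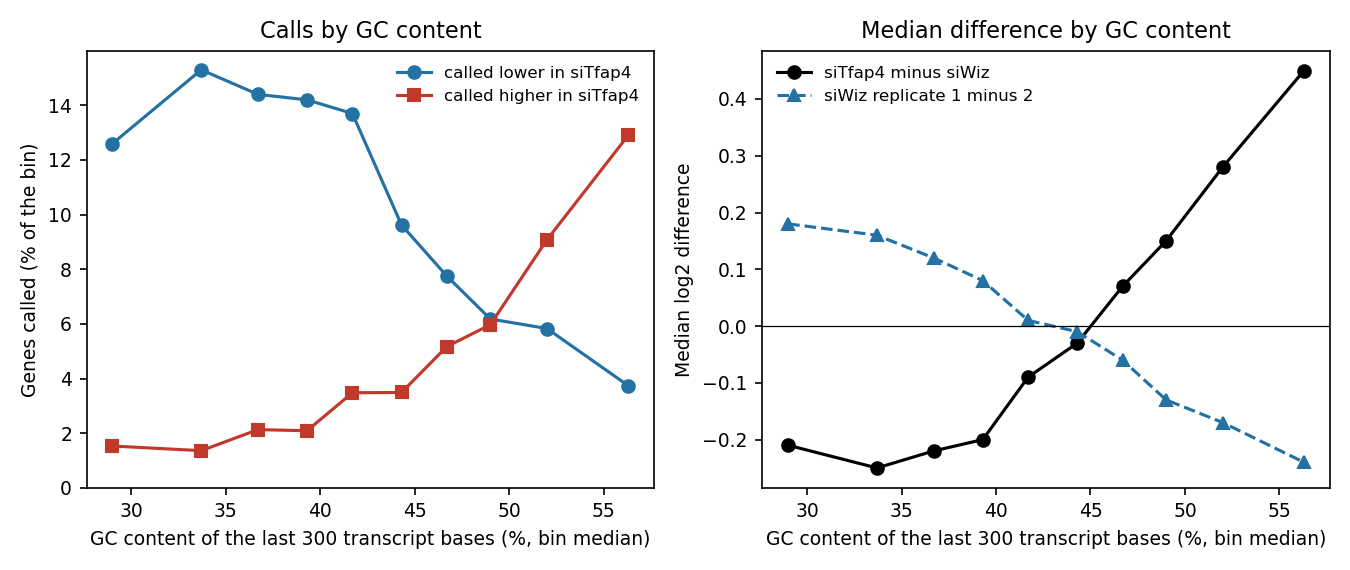
Left, percent of genes called higher (squares) and lower (circles) in siTfap4 in 10 bins of GC content of the last 300 transcript bases. Right, median log2 difference of siTfap4 minus siWiz (circles) and of siWiz replicate 1 minus replicate 2 (triangles) in the same bins. The first rises from -0.21 to 0.45 and the second falls from 0.18 to -0.24.

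Among the largest differences were single genes that were nearly absent from siTfap4. Dppa5a (chr9:78367052-78368177), an RNA-binding protein of naive ES cells, stood at 3.72 and 9.26 CPM in siTfap4 and 848 and 246 CPM in siWiz, with 376 and 489 CPM in siNeg. Its siTfap4 libraries lay 83.8-fold below siWiz (log2 difference -6.39, SE 0.59, adjusted p = 0.00022), and the difference was -5.23 without siWiz replicate 1. Txnip (chr3:96557957-96561883), an inhibitor of thioredoxin and of glucose uptake, stood at 8.56 and 12.9 CPM in siTfap4 and 345 and 159 CPM in siWiz (log2 difference -4.55, SE 0.38, adjusted p = 9.52e-05), and the difference was -3.89 without siWiz replicate 1. Morf4l2 (chrX:136732942-136743690), a subunit of the NuA4 acetyltransferase complex, had the smallest p of all genes. It stood at 8.43 and 9.97 CPM in siTfap4 and 131 and 86.2 CPM in siWiz, 11.8-fold apart (log2 difference -3.56, SE 0.28, adjusted p = 8.51e-05), and its duplicates were the closest of these 3 genes. The first of them shared 29.5% of its 3' end windows with Gm6083 and Pigp, and Txnip overlaps Gm15441 on the opposite strand, so their reads cannot be assigned with certainty. The same limit holds for other genes named below whose ends overlap a gene on the opposite strand. Among them are Fbxl14, Adam15, Ppp2r5b, Pou5f1, Ccnd1, Notum, Kif20a, Bid, Bak1, Ddit3, Srebf1, Mvd, Slc2a1 and Gapdh. The end of Snhg3 overlaps Rcc1 on the same strand.

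Other genes of the most lowered set had varied roles. Ctnnd1, the p120 catenin that holds E-cadherin at the membrane, was at 2.48 and 2.11 against 76.3 and 20.2 CPM (log2 difference -4.39, and -3.12 without siWiz replicate 1). Fbxl14, a substrate receptor of an SCF ubiquitin ligase, was at 0.496 and 0.703 against 17.8 and 8.31 CPM (log2 difference -4.42), and the host transcript Snhg8 at 1.61 and 3.75 against 87.6 and 32.8 CPM (log2 difference -4.47). All 3 were stable to leaving out a library. Hax1, a mitochondrial anti-apoptotic protein, was at 1.36 and 1.52 against 46.01 and 19.96 CPM (log2 difference -4.5) and the zinc finger gene Zfp988 at 0.744 and 2.34 against 48.7 and 19.9 CPM (log2 difference -4.45), but 28.7% and 34.7% of their 3' end windows occur in other genes. Pfn1, which loads actin monomers, was at 0.744 and 0.586 against 25.5 and 6.40 CPM (log2 difference -4.57) and its adjusted p was 0.0521 without siTfap4 replicate 1. Ran, the GTPase of nuclear transport, was among the most abundant of the lowered genes, at 154 and 426 against 1657 and 1451 CPM (log2 difference -2.42, range -3.34 to -1.87 with a library left out). Paics, of purine synthesis, was at 106 and 419 against 1338 and 1171 CPM (log2 difference -2.26, range -3.58 to -1.59). For both, siTfap4 replicate 2 was nearer to siWiz than replicate 1.

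Genes that were higher in siTfap4 moved by less. Cbx6 (chr15:79823896-79834688), a chromodomain subunit of Polycomb repressive complex 1, stood at 539 and 321 CPM in siTfap4 and 111 and 143 CPM in siWiz, with 239 and 221 CPM in siNeg. It lay 3.38-fold above siWiz (log2 difference 1.76, SE 0.27, adjusted p = 0.0019), siNeg lay between the groups, and the log2 difference was 1.33 without siTfap4 replicate 1. Its locus overlaps Npcd on the same strand. Adam15, a membrane metalloproteinase, was at 41.3 and 28.96 against 9.45 and 11.7 CPM (log2 difference 1.73, SE 0.29, adjusted p = 0.00316), and Cavin1, a coat protein of caveolae, at 193 and 118 against 50.6 and 58.9 CPM (log2 difference 1.51, SE 0.26, adjusted p = 0.00325). The 2 groups did not overlap for either gene, but this held for all 2207 called genes and was required by the rule that named them. Pygm, the muscle form of glycogen phosphorylase, was at 11.5 and 5.86 against 2.94 and 1.81 CPM (log2 difference 1.86, adjusted p = 0.0148), but its adjusted p was 0.189 without siTfap4 replicate 1. Pkp3, a plakophilin of desmosomes, was at 80.6 and 42.3 against 14.3 and 22.4 CPM (log2 difference 1.74), with an adjusted p of 0.076 and 0.0784 without siTfap4 or siWiz replicate 1. The zinc finger gene Zfp13 was at 20.95 and 12.9 against 3.30 and 6.21 CPM (log2 difference 1.83) and Ppp2r5b, a regulatory subunit of phosphatase PP2A, at 31.7 and 24.2 against 5.53 and 11.1 CPM (log2 difference 1.75). Without siWiz replicate 1 their adjusted p was 0.101 and 0.0662.

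Abundant genes among the higher ones moved by about the size of the median higher gene. Mt1, a metal-binding metallothionein, was at 3242 and 2597 against 1515 and 1485 CPM (log2 difference 0.96), and Tubb2b, a beta-tubulin, at 3352 and 2458 against 1497 and 1703 CPM (log2 difference 0.86). Sub1, a transcriptional coactivator, was at 2937 and 2051 against 1104 and 1325 CPM (log2 difference 1.04). None of these 3 was called without siTfap4 replicate 1 (adjusted p = 0.142, 0.306 and 0.161).

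The 250 bases before the annotated start are shown for 2 higher genes and 1 lower gene, Cbx6 (chr15:79834334-79834583, minus strand), Pygm (chr19:6384158-6384407, plus strand) and Rpl34 (chr3:130730399-130730648, minus strand), to set the E-box letters beside the values (RefSeq, GRCm38.p6, each 5' to 3'). The genes shown were chosen because this window holds CAGCTG or CACGTG, among genes named for a large difference or a small p. Capitals mark CAGCTG and CACGTG, searched on both strands (each reads the same on either strand, and no 2 marked matches overlap).
Cbx6: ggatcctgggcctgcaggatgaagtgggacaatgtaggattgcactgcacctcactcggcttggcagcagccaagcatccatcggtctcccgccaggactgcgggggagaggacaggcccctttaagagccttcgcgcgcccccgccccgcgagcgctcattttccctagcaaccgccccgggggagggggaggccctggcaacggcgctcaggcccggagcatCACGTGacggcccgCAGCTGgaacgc
Pygm: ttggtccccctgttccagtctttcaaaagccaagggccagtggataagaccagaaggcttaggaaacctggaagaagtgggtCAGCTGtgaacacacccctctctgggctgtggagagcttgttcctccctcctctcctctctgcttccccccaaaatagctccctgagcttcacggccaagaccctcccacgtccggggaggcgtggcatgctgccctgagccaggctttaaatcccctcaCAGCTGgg
Rpl34: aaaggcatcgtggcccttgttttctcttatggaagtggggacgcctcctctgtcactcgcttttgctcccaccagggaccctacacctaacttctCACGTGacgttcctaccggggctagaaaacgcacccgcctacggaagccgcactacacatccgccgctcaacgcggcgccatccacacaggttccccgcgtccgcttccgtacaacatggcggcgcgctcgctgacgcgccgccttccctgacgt
Cbx6 has 1 CAGCTG, starting 12 bases before the RefSeq start, and 1 CACGTG. Pygm has CAGCTG starting 168 and 8 bases before the RefSeq start, and Rpl34 has CACGTG alone. The RefSeq starts differ from the GENCODE gene models. The whole Cbx6 window lies inside the Cbx6 model given above. The Pygm model starts at 6384399, so the match nearest the Pygm start lies inside that model. Of the genes tested, 10276 matched a promoter entry, and 11.7% of those held CAGCTG and 8.48% held CACGTG in this window. CAGCTG occurred in 11.3% of matched higher genes (56 of 495) and 9.03% of matched lower genes (104 of 1152), and CACGTG in 11.7% and 8.51%. The 250 bases before Wiz held neither, nor did those of Morf4l2, Txnip, Adam15 and Cavin1. Other named genes with CAGCTG included the lower genes Tcf7, Cbx7 and Gar1 and the higher genes Dnmt3l and Ddx58. These shares are descriptions of letters in a window, not of binding.

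Pluripotency genes were taken from several lists, and the difference between lists was not tested. Of 14 general pluripotency genes tested, 4 were higher and 1 lower (35.7% called, 8 higher and 2 lower after correction for GC content and length, 2 and 0 without siTfap4 replicate 1, 0 and 1 without siWiz replicate 1), with a median log2 difference of 0.34. Of 20 naive genes 0 were higher and 4 lower (20% called, 1 higher and 3 lower after correction for GC content and length, 0 and 2 without siTfap4 replicate 1, 0 and 2 without siWiz replicate 1), with a median of -0.30. Pou5f1 (chr17:35506018-35510772), the Oct4 gene, stood at 57.4 and 48.1 CPM in siTfap4 and 17.6 and 22.9 CPM in siWiz, with 24.4 and 27.5 CPM in siNeg. The groups did not overlap and siTfap4 was 2.61-fold above siWiz (log2 difference 1.38, SE 0.25, adjusted p = 0.00418), with an adjusted p of 0.0695 without siWiz replicate 1. Lin28a, which blocks let-7 maturation, was at 125 and 95.7 against 42.7 and 49.3 CPM (log2 difference 1.26, adjusted p = 0.0718 without that library), and Dppa4, a DNA-binding protein of early embryos, at 575 and 448 against 218 and 283 CPM (log2 difference 1.03, adjusted p = 0.181 without it). Zfp281, a zinc finger factor of the exit from naive pluripotency, was lower, at 30.6 and 49.8 against 119.6 and 99.3 CPM (log2 difference -1.44, adjusted p = 0.0504 without siTfap4 replicate 1).

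Besides Dppa5a, the naive group was led by Nr0b1, the orphan receptor Dax1 that binds Oct4, at 1.49 and 5.86 against 60.9 and 35.5 CPM (log2 difference -3.7, range -5.02 to -3.04 with a library left out). It was stable to leaving out a library, although siNeg itself ranged from 41.2 to 151 CPM. Gbx2, a homeobox gene downstream of STAT3, was at 11.7 and 19.1 against 38.7 and 35.6 CPM (log2 difference -1.27, adjusted p = 0.0837 without siTfap4 replicate 1). Nanog, the homeodomain factor of self-renewal, was at 77.6 and 178 against 349.6 and 238 CPM (log2 difference -1.2, adjusted p = 0.254 without siTfap4 replicate 1), and replicate 2 of siTfap4 was closer to siWiz replicate 2 than to its own duplicate. After the GC correction its adjusted p was 0.0597. Of 15 formative and primed markers 2 were higher and 0 lower (13.3% called, 2 higher and 0 lower after correction for GC content and length, 0 and 0 without siTfap4 replicate 1, 0 and 0 without siWiz replicate 1). Dnmt3l, the cofactor of new DNA methylation, was at 159 and 123 against 80.1 and 74.1 CPM (log2 difference 0.87) and the Ets factor Etv4 at 73.5 and 47.6 against 17.7 and 36.5 CPM (log2 difference 1.16). Neither was called without siTfap4 replicate 1 (adjusted p = 0.169 and 0.249).

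Polycomb genes moved in both directions. Of 30 Polycomb genes 2 were higher and 7 lower (30% called, 3 higher and 6 lower after correction for GC content and length, 1 and 3 without siTfap4 replicate 1, 1 and 2 without siWiz replicate 1), with a median of -0.22. Cbx7, the main Cbx subunit of Polycomb repressive complex 1 in ES cells, moved opposite to Cbx6, at 11.5 and 28.96 against 188 and 122 CPM (log2 difference -2.94, SE 0.37, adjusted p = 0.000679). Phc2, of the same complex, was at 1.12 and 6.92 against 40.5 and 23.2 CPM (log2 difference -2.97, and -2.21 without siTfap4 replicate 1). Both were stable to leaving out a library. Phf19, an accessory subunit of Polycomb repressive complex 2, was at 2.11 and 4.10 against 12.8 and 8.98 CPM (log2 difference -1.8, adjusted p = 0.0781 without siTfap4 replicate 1). Eed, Pcgf3, Rbbp7 and Aebp2 were the other lower members and Pcgf2 the other higher one. The end of Cbx7 overlaps Apobec3.

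The histone H3 lysine 9 list, which holds Wiz and its partners, had 3 of 24 genes higher and 2 lower (20.8% called, 5 higher and 3 lower after correction for GC content and length, 0 and 0 without siTfap4 replicate 1, 0 and 0 without siWiz replicate 1), and none was stable to leaving out a library. Ehmt2 (G9a), the methyltransferase bound by Wiz, was at 148 and 89.5 against 46.8 and 60.5 CPM, with 62.1 and 61.3 CPM in siNeg (log2 difference 1.15, adjusted p = 0.014). Without siTfap4 replicate 1 its adjusted p was 0.151. The demethylases Kdm4a and Kdm3a were lower, at 48.4 and 101 against 158 and 181 CPM (log2 difference -1.18) and 37.6 and 41.5 against 102 and 64.1 CPM (log2 difference -1.07), with an adjusted p of 0.146 and 0.13 without siTfap4 replicate 1. Kdm4b and Wiz itself were the other higher genes. Wiz is the target of the siWiz siPOOL, so its call is part of the 20.8% but not a separate result about this list. Of 15 DNA methylation and demethylation genes 1 was higher, Dnmt3l, and 2 lower (20% called, 1 higher and 1 lower after correction for GC content and length, 0 and 0 without siTfap4 replicate 1, 0 and 0 without siWiz replicate 1). The methyl-CpG binding genes Mbd2 and Mbd1 were at 4.96 and 6.57 against 31.9 and 12.99 CPM and 5.70 and 7.74 against 12.9 and 12.7 CPM, and neither was called without siTfap4 replicate 1 (adjusted p = 0.0697 and 0.269). Of 24 histone genes 4 were higher and 0 lower (16.7% called, 4 higher and 0 lower after correction for GC content and length, 0 and 0 without siTfap4 replicate 1, 0 and 0 without siWiz replicate 1), among them H2afz at 519 and 461 against 223 and 329 CPM and Hist1h1c at 40.4 and 25.7 against 16.1 and 18.6 CPM. H2afz and Hist1h1c were not called without siTfap4 replicate 1. The other called members, Hist2h2ac and Hist1h2ae, shared 19.1% and 21.9% of their end windows with other genes. The kit starts from the poly(A) tail, so histone transcripts that lack one fall outside what it measures.

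Transcription factors that bind E-boxes or dimerise with those that do make up the family of Tfap4. Of 25 listed genes tested 1 was higher and 7 lower, Tfap4 included, a share of 32% called against 15.1% of all genes (4 higher and 4 lower after correction for GC content and length, 0 and 2 without siTfap4 replicate 1, 0 and 3 without siWiz replicate 1). Hes1, a Notch-responsive repressor, was at 11.2 and 26.5 against 150.3 and 83.7 CPM (log2 difference -2.63, SE 0.38, adjusted p = 0.0014, and -2.14 without siWiz replicate 1). Id3, which holds other helix-loop-helix proteins off DNA, was at 7.32 and 27.7 against 78.2 and 67.8 CPM (log2 difference -2.06, SE 0.44, adjusted p = 0.00943, and -1.4 without siTfap4 replicate 1). Both were stable to leaving out a library. Usf1, which binds CACGTG, had few reads, at 0.62 and 0.352 against 7.13 and 1.43 CPM (log2 difference -3.13), was not called without siTfap4 replicate 1 (adjusted p = 0.084) and shares 40.6% of its end windows with Tstd1. Max, the partner of Myc, and Mycn and Bhlhe40 were also lower, and Tfe3 was the higher gene.

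Genes of 5 signalling lists were tested, and the share called in the ERK, Nodal and BMP, and YAP lists was close to the 15.1% of all genes. Of 11 Wnt targets tested 0 were higher and 4 lower (36.4% called, 1 higher and 4 lower after correction for GC content and length, 0 and 2 without siTfap4 replicate 1, 0 and 3 without siWiz replicate 1), with a median of -1.34. Tcf7, a nuclear effector of Wnt, was at 1.61 and 1.64 against 19.8 and 10.03 CPM (log2 difference -3.19, SE 0.39, adjusted p = 0.000641), and Ccnd1, cyclin D1, at 80.7 and 106 against 248 and 223 CPM (log2 difference -1.34, SE 0.23, adjusted p = 0.00325), both stable to leaving out a library. Notum, which inactivates Wnt ligands, was at 1.49 and 5.51 against 45.3 and 19 CPM (log2 difference -3.19, adjusted p = 0.123 without siTfap4 replicate 1), and Znrf3, a ligase that removes Wnt receptors, at 3.22 and 3.52 against 7.85 and 9.65 CPM (log2 difference -1.37, adjusted p = 0.0946 without siTfap4 replicate 1). The siNeg duplicates of Notum were themselves apart, at 111 and 22.2 CPM.

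Of 18 genes of ERK feedback and the immediate early response 1 was higher and 2 lower (16.7% called, 1 higher and 2 lower after correction for GC content and length, 0 and 1 without siTfap4 replicate 1, 0 and 1 without siWiz replicate 1). Dusp6, the phosphatase that removes ERK activation, was at 6.82 and 19.9 against 130.0 and 88.9 CPM (log2 difference -3.03, SE 0.40, adjusted p = 0.000816, and -2.46 without siTfap4 replicate 1). Of 15 LIF and STAT3 genes 0 were higher and 3 lower (20% called, 4 higher and 3 lower after correction for GC content and length, 0 and 1 without siTfap4 replicate 1, 0 and 1 without siWiz replicate 1). Socs3, the feedback inhibitor of LIF signalling, was at 4.34 and 20.6 against 103 and 77.1 CPM (log2 difference -2.85, SE 0.51, adjusted p = 0.00375, and -2.13 without siTfap4 replicate 1). Dusp6 and Socs3 were stable to leaving out a library, and the siTfap4 replicate 2 level was above that of replicate 1 in both. Of 19 Nodal and BMP genes 0 were higher and 3 lower (15.8% called, 4 higher and 3 lower after correction for GC content and length, 0 and 2 without siTfap4 replicate 1, 0 and 2 without siWiz replicate 1). Bambi, a decoy receptor that dampens this family, had 3 counts in the 2 siTfap4 libraries and 95 in the 2 siWiz libraries, or 4.13% of the siWiz level (exact 95% interval 0.836 to 12.4%, counting error only). Of 13 YAP and TEAD targets 0 were higher and 2 lower (15.4% called, 2 higher and 2 lower after correction for GC content and length, 0 and 0 without siTfap4 replicate 1, 0 and 0 without siWiz replicate 1), with Yap1 at 45.1 and 100.0 against 157 and 153 CPM and Amotl2 at 13.02 and 19.6 against 35.4 and 26.5 CPM. Neither was called without siTfap4 replicate 1 (adjusted p = 0.202 and 0.266).

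Cell cycle genes moved in both directions. Of 28 cyclins, cyclin-dependent kinases and their inhibitors tested 4 were higher and 9 lower (46.4% called against 15.1% of all genes, 5 higher and 6 lower after correction for GC content and length, 1 and 3 without siTfap4 replicate 1, 0 and 3 without siWiz replicate 1). Cdk1 (chr10:69335146-69352938), the kinase of mitotic entry, was at 13.4 and 47.1 against 247 and 209 CPM, with 151 and 238 CPM in siNeg. Its siTfap4 duplicates lay apart but both were below both siWiz libraries (log2 difference -2.91, SE 0.44, adjusted p = 0.00168, and -2.28 without siTfap4 replicate 1). Ccng2, a cyclin of cell cycle arrest, had 2 counts in siTfap4 and 174 in siWiz, or 1.5% of the siWiz level (exact 95% interval 0.18 to 5.51%, counting error only). Of the siWiz counts of Ccng2 139 came from replicate 1, and its fitted log2 difference of -5.9 was -4.65 without that library and -9.43 without siTfap4 replicate 1. Ccnb1, Ccnb2, Ccna2, Cdk2, Cdkn1b and Rb1 were also lower. Ccne2, cyclin E2 of S phase entry, was higher, at 91.5 and 85.7 against 33.5 and 38.2 CPM (log2 difference 1.3, SE 0.22, adjusted p = 0.00321), and its adjusted p was 0.0514 without siWiz replicate 1. E2f2, Cdkn1a and Ccnd3 were the other higher members. The end of Ccne2 overlaps Ints8 on the opposite strand.

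DNA replication genes, 32 tested, included 1 higher (Lig1) and 11 lower (37.5% called, 7 higher and 9 lower after correction for GC content and length, 0 and 5 without siTfap4 replicate 1, 0 and 4 without siWiz replicate 1), with a median of -0.13. Gmnn, geminin, which blocks a new round of licensing, was at 27.4 and 47.4 against 151 and 108 CPM (log2 difference -1.79, SE 0.29, adjusted p = 0.00262). The helicase subunits Mcm6 and Mcm4 were at 112 and 152 against 435 and 347 CPM (log2 difference -1.56) and 38.8 and 33.3 against 268 and 91.7 CPM (log2 difference -2.32, and -1.34 without siWiz replicate 1). Rrm2, of ribonucleotide reductase, was at 30.9 and 71.05 against 223 and 157 CPM (log2 difference -1.9, and -2.63 without siTfap4 replicate 2). All 4 were stable to leaving out a library. Mitosis genes, 30 tested, included 1 higher (Ttk) and 8 lower (30% called, 5 higher and 7 lower after correction for GC content and length, 0 and 2 without siTfap4 replicate 1, 0 and 2 without siWiz replicate 1). Bub1b, a kinase of the spindle checkpoint, was at 45.3 and 54.4 against 172 and 123 CPM (log2 difference -1.57, SE 0.25, adjusted p = 0.00207), and Cenpa, the histone variant of centromeres, at 17.5 and 71.3 against 232 and 189 CPM (log2 difference -2.24, and -1.57 without siTfap4 replicate 1). Ect2 and Kif20a, both of cytokinesis, were at 50.2 and 65.8 against 177 and 113 CPM and 17.6 and 40.4 against 86.1 and 70.96 CPM, and were not called without siTfap4 replicate 1 (adjusted p = 0.0753 and 0.0898).

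Cytosolic ribosomal protein genes, whose products make the 2 subunits of the ribosome, gave calls in 1 direction, and in both directions after the GC correction. After that correction 12% of all protein-coding genes tested were called higher, and the higher calls in this list are to be read against that share. Of 38 tested 0 were higher and 10 lower (26.3% called, 5 higher and 12 lower after correction for GC content and length, 0 and 5 without siTfap4 replicate 1, 0 and 5 without siWiz replicate 1), with a median of -0.47. Rps23 was at 55.5 and 65.9 against 1109.8 and 436 CPM (log2 difference -3.67, SE 0.40, adjusted p = 0.00043, and -2.84 without siWiz replicate 1), Rpl11 at 10.4 and 34.8 against 284 and 158 CPM (log2 difference -3.29), Rps16 at 31.6 and 111 against 728 and 585 CPM (log2 difference -3.2) and Rpl15 at 4.59 and 12.3 against 132 and 36.8 CPM (log2 difference -3.31, and -2.11 without siWiz replicate 1). All 4 were stable to leaving out a library. Rpl34, outside that list, was at 27.03 and 32.8 against 315 and 205 CPM (log2 difference -3.12, SE 0.33, adjusted p = 0.000412), and 32.7% of its end windows occur in 9 other genes. The other 28 listed genes did not pass the test. Of 27 ribosome biogenesis genes 2 were higher and 3 lower (18.5% called, 8 higher and 2 lower after correction for GC content and length, 0 and 1 without siTfap4 replicate 1, 0 and 1 without siWiz replicate 1). Gar1, of the box H/ACA particle, was at 6.45 and 21.6 against 140.0 and 71.8 CPM (log2 difference -2.91, and -4.05 without siTfap4 replicate 2). The nucleolar genes Fbl and Rrp12 were at 16.7 and 39.3 against 88.6 and 66.4 CPM and 108 and 55.3 against 31.5 and 40.6 CPM, and neither was called without siTfap4 replicate 1 (adjusted p = 0.158 and 0.263). Of the end windows of Fbl 54.6% are shared with Gm5812.

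Among proteasome and ubiquitin genes 48.4% of the 31 tested were called, against 15.1% of all genes, 5 higher and 10 lower (8 higher and 8 lower after correction for GC content and length, 0 and 5 without siTfap4 replicate 1, 0 and 5 without siWiz replicate 1). Ubb, a polyubiquitin gene, was at 1.86 and 1.06 against 108 and 35.2 CPM (log2 difference -5.61, and -4.59 without siWiz replicate 1), and Rps27a, a ubiquitin fusion, at 47.2 and 138 against 1026 and 602 CPM (log2 difference -3.13). Of their end windows 86.5% and 86.9% are shared with other genes, mostly copies, so these 2 values are uncertain. Psmd14, the deubiquitinase of the proteasome lid, shares none and was at 44.9 and 61.7 against 244 and 149 CPM (log2 difference -1.88, SE 0.28, adjusted p = 0.0014). The core subunit Psma5 was at 5.33 and 15.9 against 95.4 and 47.8 CPM (log2 difference -2.75) with 57.8% of windows shared. Psmc1, Psmc3, Psmc4 and Psmd4, of the regulatory particle, were among the higher members.

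Of 24 mitochondrial import genes 1 was higher and 6 lower (29.2% called, 2 higher and 6 lower after correction for GC content and length, 0 and 1 without siTfap4 replicate 1, 0 and 1 without siWiz replicate 1). Tomm5, of the outer membrane translocase, was at 1.36 and 7.62 against 37.99 and 26.6 CPM (log2 difference -2.83, and -2.09 without siTfap4 replicate 1) and was stable to leaving out a library. Pmpcb, which cleaves presequences, was at 0.868 and 2.23 against 44.7 and 9.74 CPM (log2 difference -4.12, adjusted p = 0.0898 without siTfap4 replicate 1), and Timm8a1, an intermembrane chaperone, was higher at 13.02 and 11.4 against 4.64 and 4.49 CPM (adjusted p = 0.0974 without siTfap4 replicate 1). Of 8 mitochondrially encoded mRNAs 0 were higher and 1 lower (12.5% called, 1 higher and 1 lower after correction for GC content and length, 0 and 0 without siTfap4 replicate 1, 0 and 0 without siWiz replicate 1), mt-Cytb at 2118 and 4977 against 10341 and 8976 CPM (log2 difference -1.45, adjusted p = 0.139 without siTfap4 replicate 1). Atp5g3, of the ATP synthase ring, was at 348 and 771 against 1678 and 1571 CPM (adjusted p = 0.0957 without siTfap4 replicate 1). Of 29 chaperone genes 2 were higher and 5 lower (24.1% called, 11 higher and 4 lower after correction for GC content and length, 0 and 1 without siTfap4 replicate 1, 0 and 1 without siWiz replicate 1). Hspa8, the constitutive Hsp70, was at 26.04 and 19.6 against 293 and 78.8 CPM (log2 difference -3.03, and -1.78 without siWiz replicate 1), with 67.3% of end windows shared. Of 29 splicing factor genes 0 were higher and 6 lower (20.7% called, 6 higher and 3 lower after correction for GC content and length, 0 and 0 without siTfap4 replicate 1, 0 and 0 without siWiz replicate 1). Hnrnpl was at 64.1 and 73.6 against 139.6 and 142 CPM and Srsf1 at 125 and 152 against 446 and 261 CPM, with an adjusted p of 0.0663 and 0.0898 without siTfap4 replicate 1.

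Stress and metabolic genes went both ways. Of 32 genes of the integrated stress response 5 were higher and 4 lower (28.1% called, 7 higher and 4 lower after correction for GC content and length, 0 and 2 without siTfap4 replicate 1, 0 and 2 without siWiz replicate 1). Ddit3 (Chop), a target of Atf4, was at 60.01 and 33.4 against 15.7 and 19.8 CPM (log2 difference 1.4, adjusted p = 0.119 without siTfap4 replicate 1), and Atf4 itself was called higher. Phgdh, the first enzyme of serine synthesis and an Atf4 target too, was lower at 8.31 and 15.7 against 104 and 83.1 CPM (log2 difference -2.96, SE 0.35, adjusted p = 0.000579), with 35.1% of end windows shared. Psph, of the same pathway, was at 39.2 and 56.2 against 175 and 92.2 CPM (log2 difference -1.49, and -0.95 without siWiz replicate 1). Psph was not called without siTfap4 or siWiz replicate 1. Of 30 p53 and apoptosis genes 5 were higher and 1 lower (20% called, 5 higher and 1 lower after correction for GC content and length, 0 and 1 without siTfap4 replicate 1, 0 and 1 without siWiz replicate 1). Bid, which links death receptors to mitochondria, was at 5.46 and 10.2 against 51.01 and 29.7 CPM (log2 difference -2.36, SE 0.34, adjusted p = 0.00129) and stable to leaving out a library. Bak1, a pore-forming relative, was at 43.8 and 31.7 against 11.4 and 19.7 CPM, Gdf15, a secreted stress factor, at 126 and 92.4 against 38.4 and 65.7 CPM and Sesn2 at 143 and 119 against 48.9 and 84.7 CPM. None of these 3 was called without siTfap4 replicate 1 (adjusted p = 0.126, 0.197 and 0.168).

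Of 26 glycolysis and hypoxia genes 4 were higher and 3 lower (26.9% called, 7 higher and 3 lower after correction for GC content and length, 0 and 2 without siTfap4 replicate 1, 0 and 1 without siWiz replicate 1). Gapdh was at 17.7 and 16.8 against 266 and 68.8 CPM (log2 difference -3.28, and -1.99 without siWiz replicate 1), but 82.9% of its end windows occur in other genes. Slc2a1, the glucose transporter Glut1, was at 168 and 161 against 499 and 340.3 CPM (log2 difference -1.35, SE 0.25, adjusted p = 0.0043, and adjusted p = 0.0787 without siWiz replicate 1), and Pgam1 was higher at 117 and 72.3 against 26.7 and 44.4 CPM (adjusted p = 0.102 without siTfap4 replicate 1). Of 23 cholesterol synthesis genes 2 were higher and 2 lower (17.4% called, 6 higher and 1 lower after correction for GC content and length, 0 and 0 without siTfap4 replicate 1, 0 and 1 without siWiz replicate 1). Srebf1, a master regulator of lipid synthesis, was at 0.62 and 2.23 against 18.8 and 8.21 CPM (log2 difference -3.22, adjusted p = 0.0619 without siTfap4 replicate 1), and Mvd, of the mevalonate pathway, at 123 and 83.8 against 36.8 and 50.8 CPM (adjusted p = 0.0993 without siTfap4 replicate 1). Of 13 genes of RNA interference and microRNA processing 2 were higher and 1 lower (23.1% called, 5 higher and 1 lower after correction for GC content and length, 1 and 1 without siTfap4 replicate 1, 0 and 1 without siWiz replicate 1). Xpo5, which exports microRNA precursors, was at 40.8 and 51 against 126 and 116 CPM (log2 difference -1.4, SE 0.24, adjusted p = 0.00338) and stable to leaving out a library. Drosha, which cuts them out in the nucleus, was at 319 and 231 against 163 and 166 CPM (log2 difference 0.74), with an adjusted p of 0.316 without siTfap4 replicate 1. Of 11 interferon genes 1 was higher and 0 lower (9.09% called, 3 higher and 0 lower after correction for GC content and length, 0 and 0 without siTfap4 replicate 1, 0 and 0 without siWiz replicate 1), Ddx58 (Rig-I) at 71.7 and 45.8 against 32.9 and 21.7 CPM (adjusted p = 0.237 without siTfap4 replicate 1).

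Of 29 actin regulators 1 was higher and 9 lower (34.5% called, 6 higher and 7 lower after correction for GC content and length, 1 and 1 without siTfap4 replicate 1, 0 and 2 without siWiz replicate 1). Tmsb4x, thymosin beta-4, which sequesters actin monomers, was at 20.7 and 92.5 against 865 and 404 CPM (log2 difference -3.48, SE 0.55, adjusted p = 0.00208, and -2.78 without siTfap4 replicate 1) and was stable to leaving out a library. Dstn, destrin, which severs filaments, was higher at 1586 and 1039.6 against 442 and 549.6 CPM (log2 difference 1.41, SE 0.27, adjusted p = 0.00517, and adjusted p = 0.0826 without siWiz replicate 1). Of 25 cadherin, catenin and junction genes 4 were higher and 4 lower (32% called, 6 higher and 4 lower after correction for GC content and length, 0 and 2 without siTfap4 replicate 1, 0 and 2 without siWiz replicate 1). Vim, the intermediate filament vimentin, was at 94.97 and 92.97 against 335 and 232 CPM (log2 difference -1.59, SE 0.24, adjusted p = 0.00184), stable like Ctnnd1. Small nucleolar RNA host genes, 16 tested, had 3 higher and 3 lower (37.5% called, 1 higher and 0 lower after correction for GC content and length, 0 and 1 without siTfap4 replicate 1, 0 and 1 without siWiz replicate 1, the first over protein-coding genes alone). Snhg3 was at 1729 and 1139 against 648 and 745 CPM (log2 difference 1.04) and Snhg1 at 262 and 277 against 546 and 473 CPM (log2 difference -0.92), with an adjusted p of 0.217 and 0.108 without siTfap4 replicate 1.

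Markers of other cell types were tested by list, with 2 to 7 tested genes in each. Of 5 trophectoderm markers tested 1 was higher (20% called against 15.1% of all genes, 1 higher and 0 lower after correction for GC content and length, 0 and 0 without siTfap4 replicate 1, 0 and 0 without siWiz replicate 1), Krt18 at 11.5 and 6.68 against 3.92 and 2.58 CPM (adjusted p = 0.265 without siTfap4 replicate 1), and the summed level of the 8 listed was 164 and 287 CPM in siTfap4 and 153 and 225 CPM in siWiz. Of 7 primitive endoderm markers none was called by edgeR and 1 had an unadjusted p below 0.05, with sums of 55.3 and 36.2 against 37.4 and 26.8 CPM. Its leading member Lama1 was at 42.03 and 28.02 against 22.4 and 17.9 CPM (adjusted p = 0.0947). Of 5 neural markers 1 was lower (20% called, 0 after correction for GC content and length), Sox21 at 2.60 and 5.39 against 9.90 and 8.59 CPM (adjusted p = 0.048). The call on Sox21 was lost in 9 of 19 alternatives, with an adjusted p of up to 0.328 without siTfap4 replicate 1, and Neurog2 was at 0 counts in all 8 libraries. None of 3 mesoderm and 2 fibroblast markers was called, 0 had an unadjusted p below 0.05, and their summed levels were at most 6.88 and 13.2 CPM in any library. Postn had 0 counts in all 8. The primitive endoderm, mesoderm and fibroblast lists also had 0 calls after correction for GC content and length. Of 15 genes of the 2C-like state and germline 1 was higher and 1 lower (13.3% called, 1 higher and 1 lower after correction for GC content and length, 0 and 0 without siTfap4 replicate 1, 0 and 1 without siWiz replicate 1), the meiotic Hormad1 lower at 0.248 and 0.469 against 2.41 and 2.67 CPM (adjusted p = 0.0918 without siTfap4 replicate 1) and Taf7l higher at 10.04 and 6.33 against 1.61 and 3.53 CPM (adjusted p = 0.239 without siTfap4 replicate 1). Of the 17 tested genes of the imprinted list 0 were called by edgeR, with or without the correction for GC content and length, and 5 had an unadjusted p below 0.05. The list does not hold every imprinted gene. Dio3, called higher in siTfap4 (log2 difference 1.54, adjusted p = 0.0405), was not on it. Meg3, the maternally expressed noncoding RNA, was at 1881 and 839 against 657 and 596 CPM (adjusted p = 0.0657), and passed in 6 of 17 alternatives.

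**Figure D5:**
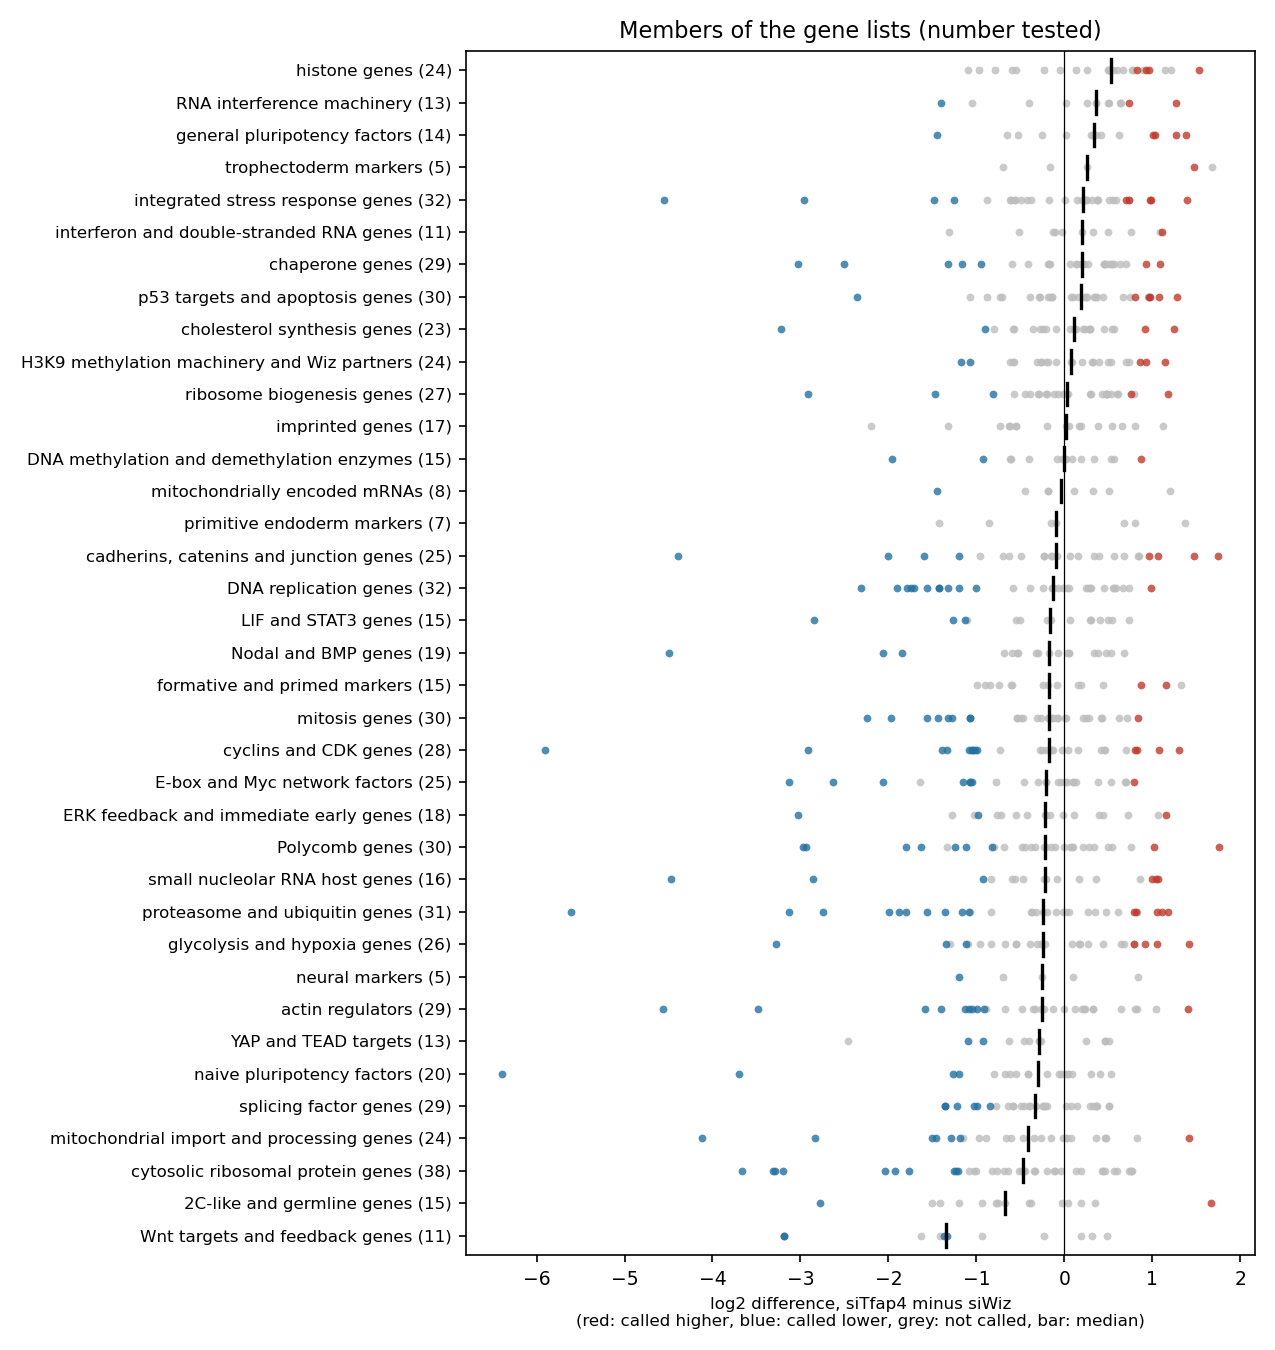
Log2 difference (siTfap4 minus siWiz) of each tested member of the gene lists with 5 or more tested members, ordered by the list median (black bar). Red and blue points are genes called higher and lower, and grey points did not pass the test. Wnt targets have the lowest median (-1.34) and histone genes the highest (0.53), against -0.01 for all genes tested. Histone transcripts that lack a poly(A) tail fall outside what the kit measures.

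For 15 of the 2207 called genes the siNeg and siZic2 levels were nearer to siTfap4, Wiz itself among them. None of the 15 differed from siNeg in siWiz at the threshold (lowest adjusted p = 0.708). They were picked after their values were seen, and none was stable to leaving out a library. The list had 12 genes higher in siTfap4 and 3 lower. Zfp568, a KRAB zinc finger gene of early development, was at 76 and 73.98 CPM in siTfap4 and 36.5 and 47.9 CPM in siWiz, with 70.2 and 61.02 CPM in siNeg and 61.4 and 62.7 CPM in siZic2. Dio3, the deiodinase that inactivates thyroid hormone, was at 5.95 and 7.27 CPM in siTfap4 and 1.96 and 2.58 CPM in siWiz, and its siNeg libraries were at 2.74 and 5.67 CPM. Kcnh1, a potassium channel gene, was higher in siWiz, at 0.868 and 0.234 CPM in siTfap4 and 3.30 and 2.67 CPM in siWiz, with 0.831 and 0.673 CPM in siNeg. Chic1, Irak1, Lgals9, Nckap5l, Tmem116, Krt222 and Zfp763 were further members with gene names, with Zfp763 higher in siWiz at 9.18 and 8.09 CPM in siTfap4 and 15.2 and 18.5 CPM in siWiz.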

How the data were processed

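Per the labels' protocols, 500 ng of Trizol-extracted RNA went into each QuantSeq 3' mRNA-Seq FWD library. The deposited values are raw counts per Ensembl gene, not normalized by the authors. Per the submitters' processing notes, reads were trimmed with Trim Galore and the build was GRCm38, with no versions. For the aligner, counter, annotation release, strand setting and molecular identifiers, nothing is stated in the sources used, so intervals for low counts cover counting error only.

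Of 55421 identifiers 55240 matched GENCODE M21. Genes were filtered with filterByExpr (14647 left), scaled by TMM and fitted with edgeR 4.0.16 in R 4.3.3 (quasi-likelihood, all 8 libraries, 1 mean per group, 4 residual degrees of freedom, a biological coefficient of variation of 22.2%). The contrast was siTfap4 minus siWiz, with Benjamini-Hochberg adjustment over all genes tested and a threshold of 0.05. An adjusted p is from this test unless another contrast, a left-out library or the GC correction is named beside it, and every fold or log2 difference is siTfap4 against siWiz unless another group is named. SE was derived from the log2 difference and the F statistic. CPM values are comparable between libraries and are not divided by transcript length.

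DESeq2 1.42.0 and the other alternatives are described in the closing section. Shared end windows are runs of 50 bases in the last 300 of a transcript that occur in another gene's transcripts, and the promoter letters come from RefSeq GRCm38.p6.

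Genes were named by rule, namely the targeted genes, the 10 largest differences, 6 smallest p and 6 highest levels per direction among called genes whose groups did not overlap and whose mean reached 5 CPM, and for each list the 4 called members of smallest p (up to 2 uncalled members where none was called). Some items that this rule selects are not reported here. Called members named without values and the 15 genes whose siNeg and siZic2 levels were nearer to siTfap4 were added after values were seen. The members, the 39 lists and the alternatives were chosen with earlier results of these data known, so no list is independent evidence of its direction. Correction for GC content and length used natural splines per library over protein-coding genes and, like protein-coding genes alone and thinned libraries, was added after seeing the data.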

Additional observations from a re-analysis of the deposited data

How the results depend on the processing

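Against 2207 called genes (682 higher and 1525 lower in siTfap4), leaving out each library in turn gave 401 to 3279 genes, 14 to 1182 higher and 381 to 2097 lower, with the low ends set by siTfap4 or siWiz replicate 1 and the high ends by siTfap4 replicate 2. The 4 compared libraries alone gave 1411, of which 349 were higher, and the test against a 1.5-fold minimum gave 654, of which 46 were higher and 608 lower. After correction for GC content and length 1495 were higher. The causes were not tested. RLE size factors gave 2204 genes, library totals 2062, no filter 2851, a mean of at least 5 CPM 2059, DESeq2 2534, protein-coding genes alone 2164 and libraries thinned to the smallest total 2205. With the replicate number as a block 3056 genes were called, 1100 of them higher, and same-numbered libraries correlated in their deviations from the group means at r = -0.04 between siTfap4 and siWiz and at 0.13 to 0.33 between the other pairs of groups. In all 4 groups replicate 1 lay above replicate 2 on the second principal component, which is a hint from the data, not from the design. Of 137 named and called genes 52 were called under every alternative, and 79 lost their call without siTfap4 replicate 1 and 79 without siWiz replicate 1. The uncalled genes Mesp1, Kdr and Thy1 changed sign with a library left out. Mesp1 ranged from -1.76 to 0.98, Kdr from -1.98 to 0.33 (0.13 without siTfap4 replicate 1) and Thy1 from -0.35 to 0.11 on the log2 scale. Genes with few reads, such as Bambi and Ccng2, are limited by depth.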
